A study of Mus musculus with 6 samples.

Results

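The Eya-Six genes described here (Eya1, Eya2, Eya3, Eya4, Six2, Six4 and Six5; 7 of the 25899 gene symbols in the deposited table) were followed through the apical part, toward the growing root, of the mouse lower first molar at postnatal day 7.5. They were taken by symbol, and Eya4 was chosen by its measured level, which was lower in the mutants, so its difference between the genotypes is given as a description with no test. The 3 mutant libraries came from mice carrying Gli1-CreER together with floxed Bmpr1a alleles (Gli1-CreER;Bmpr1afl/fl), and the 3 control libraries came from littermates with the same floxed alleles and no driver named (Bmpr1afl/fl). Both groups were on a mixed C57Bl6/129S6/SvEvTac background. CreER is a recombinase that needs tamoxifen to act, and here it is made only in Gli1-expressing cells. By this design the receptor is meant to be lost from those cells and their descendants and not from the whole tissue. Whether recombination took place was not tested here. The labels give no tamoxifen schedule and no treatment of the controls. Control 3 and mutant 3 were born to litter 2, and all other libraries belong to litter 1.

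The products of these genes work as a pair. Six2, Six4 and Six5 are sine oculis homeobox proteins, transcription factors that bind DNA, and Eya proteins are coactivators that do not bind DNA themselves but join those factors on it and also carry a phosphatase domain. Together with Pax and Dach proteins they form a network used in the eye, ear, kidney, muscle and the neural crest-derived mesenchyme of the face, from which the mesenchyme of the tooth arises. Bone morphogenetic proteins (BMPs) signal through the receptor that Bmpr1a encodes, and the comparison asked how its loss changes gene expression in this mesenchyme.

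On GRCm38 (mm10) with the GENCODE M21 annotation, Eya4 lies on chromosome 10 from 23102963 to 23350786 on the minus strand, and Eya3 on chromosome 4 from 132638987 to 132724765 on the plus strand. Six2 is a short gene on chromosome 17, from 85684277 to 85688274 on the minus strand, and Six4 runs from 73099609 to 73113456 on the minus strand of chromosome 12. Eya1 is on chromosome 1 (14168954 to 14310235, minus strand), Eya2 on chromosome 2 (165595032 to 165771727, plus strand) and Six5 on chromosome 7 (19094594 to 19098549, plus strand). None of the 7 shares exon bases with another annotated gene (0 of 7); the annotation behind the deposited values is not given in the sources used here.

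Promoter sequence from RefSeq (GRCm38.p6) was found for 5 of the 7 genes; Eya1 and Eya2 had no entry. The 250 bases before each start were searched on both strands for 6 motifs. They were TCAGGTT (the MEF3 core, a site bound by sine oculis homeobox proteins), GGCGCC (a palindrome bound by BMP-activated SMAD proteins), GTCTAGAC (the palindromic SMAD box), GACCACCCA (the GLI site), TATAAA and CCAAT. No motif of this set overlapped another in the stretches shown. Eya4 is shown as the gene picked for its lower level in mutants, Six4 because its window held the only MEF3 core, Six2 because its level differed widely among the mutants, and Eya3 as the steady Eya gene for comparison. Capitals mark a motif match. For Eya4 and Six4, whose windows here lie mostly in annotated exons, 30 bases around the match are given. For Six2 and Eya3 the part outside annotated exons is given.
Eya4, chr10:23350116-23350145, minus strand: cctttcccggtcGGCGCCctagagagggga
Six4, chr12:73113324-73113353, minus strand: ggcctgggggaAACCTGAtcggccagatcc
Six2, chr17:85688275-85688504, minus strand: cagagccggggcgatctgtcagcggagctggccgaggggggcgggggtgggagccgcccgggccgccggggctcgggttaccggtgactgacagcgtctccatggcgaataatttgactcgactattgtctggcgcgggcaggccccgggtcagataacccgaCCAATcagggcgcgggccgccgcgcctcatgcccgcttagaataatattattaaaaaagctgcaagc
Eya3, chr4:132638796-132638986, plus strand: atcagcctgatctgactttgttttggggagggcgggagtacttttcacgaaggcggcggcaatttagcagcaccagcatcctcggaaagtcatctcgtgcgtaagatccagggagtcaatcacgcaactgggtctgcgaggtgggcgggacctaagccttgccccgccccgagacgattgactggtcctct

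The GGCGCC palindrome stood 243 and 190 bases before the Eya4 starts of the table, which are close enough for both windows to hold the same site. It was present in 9.59% of the 32851 promoters of the same length. The MEF3 core in the Six4 window, read on the opposite strand as AACCTGA, lay 97 bases before a start and occurred in 3.49% of promoters. CCAAT, the site of the general factor NF-Y, lay 87 bases before the Six2 start and 73 bases before the other Six4 start, and occurred in 33.8%. Neither the SMAD box (0.167% of promoters), the GLI site (0.225%) nor TATAAA (12.4%) was found in a window of the 5 genes. The windows held 25 and 35 CpG sites for Eya4, 26 for Six2, 18 for Eya3, 15 and 13 for Six4 and 13 for Six5, against a median of 6 over all promoters. These matches describe letters in a window and say nothing of binding in these cells.

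The libraries held between 15916045 and 20609420 reads on genes. Values are reads per 1000000 reads (RPM), where 1 read was worth 0.0329 to 0.0419 RPM. The detection floor of 3 reads lay at 0.0987 to 0.126 RPM. A change is the mutant mean minus the control mean of log2(RPM + 1), a scale on which low genes appear to differ less than they do, and means are given ± SD with n = 3 libraries per genotype. Bmpr1a itself was at 121, 139 and 149.5 RPM in controls 1 to 3 and at 108, 120 and 111 RPM in mutants 1 to 3, a log2 change of -0.27 (SE 0.14, unadjusted p 0.0910 and adjusted p 1.00 by limma with Benjamini-Hochberg). Every mutant was below every control, as for 1.67% of all genes tested. Of the 10 listed markers of the apical dental mesenchyme all 10 were tested, and their summed level was 2892 to 3826 RPM in controls and 2480 to 3748 RPM in mutants. The enamel epithelium markers summed to 2323 to 39098 RPM in controls and 5357 to 49059 RPM in mutants, a wide range within each genotype. Skeletal muscle, a tissue with strong Eya-Six expression, was near absent: its 10 markers summed to 1.24 to 2.30 RPM over all libraries, and Myod1, Myog and Pax7 had 0 reads.

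**Figure D1:**
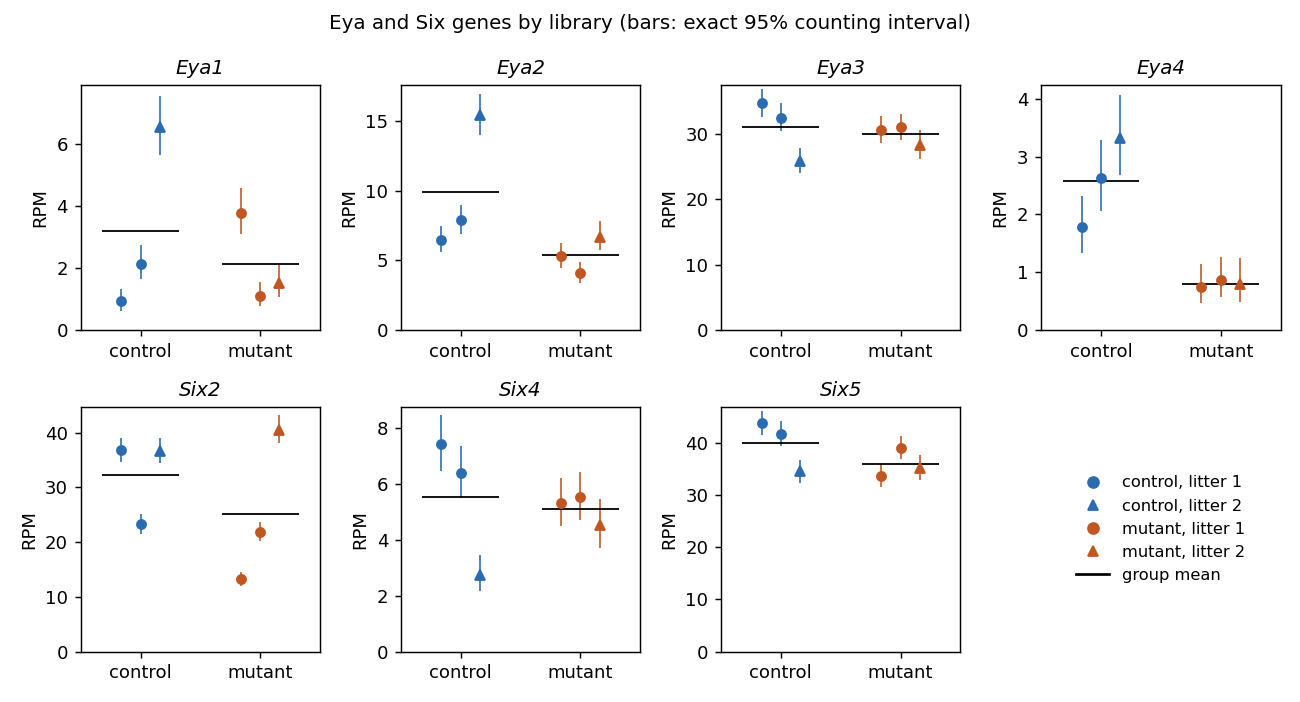
Level of each gene in RPM (y axis, from 0) in the 3 control and 3 mutant libraries. Circles are litter 1 and triangles litter 2, vertical bars are exact 95% counting intervals and horizontal lines group means. Eya4 is the gene whose groups do not overlap: its mutants sit between 0.746 and 0.865 RPM and its controls between 1.78 and 3.32 RPM.

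Eya4, the coactivator mutated in an inherited deafness and a heart muscle disease, was low in this tissue and lower in every mutant. Controls 1 to 3 held 1.78, 2.62 and 3.32 RPM, and mutants 1 to 3 held 0.746, 0.865 and 0.796 RPM. All mutants lay below all controls, and the mutants were nearly level with each other while the controls differed by 1.87-fold. The means were 2.57 ± 0.772 RPM in controls and 0.802 ± 0.0597 RPM in mutants, so the control mean was 3.21 times the mutant mean. These levels rest on 54, 75 and 94 reads in the controls and 21, 26 and 19 reads in the mutants. The log2 change was -0.96, with -0.81 within litter 1 and -1.27 within litter 2. Eya4 was picked for this contrast, so nothing is read from its lack of overlap; among all 14444 genes tested, 1.67% had mutants below controls without overlap. In bulk tissue, fewer cells that make a transcript and less of it per cell cannot be told apart.

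Among the other 6 genes, 0 had an adjusted p under 0.05 (limma with Benjamini-Hochberg over all 14444 genes; background 0.0%), and the adjusted p was 1.00 for each. At an unadjusted p under 0.05 the count was also 0 of 6, against a background of 1.05% of all genes. The fitted change was below 0 for all 6 of these and for Eya4, as for 54.4% of all genes tested, but Six4, at -0.01, turned positive under median-of-ratios scaling (0.0067), with a pseudocount of 0.1 RPM (0.0062) and by limma voom (0.014). The median change of the 7 was -0.28, or -0.21 without Eya4, against -0.01 over all genes.

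Eya2, the Eya coactivator with the second highest level per length, came closest to Eya4 in size of change. It was at 6.48, 7.87 and 15.4 RPM in controls 1 to 3 and at 5.29, 4.09 and 6.70 RPM in mutants 1 to 3. Control 3 stood well above the rest, and mutant 3 lay just above control 1, so the groups overlapped by a narrow margin. The means were 9.92 ± 4.80 and 5.36 ± 1.31 RPM. The log2 change was -0.71 (SE 0.33, 95% interval -1.48 to 0.051, unadjusted p 0.0633 by limma, adjusted p 1.00 with Benjamini-Hochberg). Within each litter every mutant was below every control: the change was -0.53 in litter 1 and -1.09 in litter 2. With litter as a block the unadjusted p was 0.00974 and the adjusted p 1.00 by limma, in a fit where 2.02% of all genes had an unadjusted p under 0.05. The change was -0.38 without control 3 (unadjusted p 0.167), -0.94 without control 1 (0.0298) and -0.91 with the enamel markers as a covariate (0.0134), each with an adjusted p of 1.00 (limma, Benjamini-Hochberg).

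Of the glia and neuron markers, Tubb3, a tubulin of neurons named after its values were seen, held most of the sum in control 3 and mutant 3. The list summed to 64.7, 55.8 and 202 RPM in controls 1 to 3 and to 43.2, 48.3 and 96.7 RPM in mutants 1 to 3, and ran with Eya2 over the 6 libraries (Pearson's r 0.89). Without Tubb3 the other 5 markers summed to 19.7 to 23.3 RPM in all 6 libraries and had an r of 0.23 with Eya2, so the relation of the list to Eya2 rests on Tubb3.

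Eya1, the coactivator mutated in branchio-oto-renal syndrome, was the most variable of the 7. It was at 0.922, 2.13 and 6.53 RPM in controls 1 to 3 and at 3.77, 1.10 and 1.51 RPM in mutants 1 to 3. The values ranged over 7.09-fold among controls alone, and the groups overlapped throughout. The means were 3.20 ± 2.95 and 2.12 ± 1.44 RPM. The log2 change of -0.28 (SE 0.53, 95% interval -1.54 to 0.97) had an unadjusted p of 0.611 by limma. Litter 1 alone gave a change of 0.37 and litter 2 one of -1.59, and without control 3 it was 0.25. The difference between the litters, -1.95 (SE 0.79), had an unadjusted p of 0.0492 (limma; Benjamini-Hochberg adjusted p 0.91); 5.06% of all genes had an unadjusted p under 0.05 in that fit. The unadjusted p was 0.0740 under median-of-ratios scaling (difference -2.13) and 0.0734 with a pseudocount of 0.1 RPM (difference -2.55), both by limma. Control 3 and mutant 1, the libraries highest in Eya1, were also the highest in the summed enamel epithelium markers (39098 and 49059 RPM), most of which was Amelx, Ambn and Enam. Krt14, Krt5, Epcam and Cdh1 of the same list were instead highest in mutant 3, where Eya1 was at 1.51 RPM. For Cdh1, mutant 3 (221 RPM) was nearly level with control 3 (218 RPM). Klk4 was highest in control 3 (98.4 RPM), and Mmp20 (287 RPM) and Amtn (535 RPM) were highest in mutant 1. All of these were named after their values were seen. With the mean log2 level of all 10 listed enamel epithelium markers as a covariate the Eya1 change was -0.67 (unadjusted p 0.129, adjusted p 1.00 by limma with Benjamini-Hochberg).

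Eya3, a broadly expressed coactivator that acts on a histone after DNA damage, was the steadiest Eya gene. It was at 34.7, 32.5 and 25.9 RPM in controls 1 to 3 and at 30.6, 31.0 and 28.3 RPM in mutants 1 to 3. The mutants lay inside the range of the controls. The means were 31.0 ± 4.60 and 29.99 ± 1.45 RPM, and the log2 change was -0.04 (SE 0.15, unadjusted p 0.804 by limma). The 95% interval of the change ran from -0.39 to 0.32.

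Six2, a factor that keeps kidney progenitors undifferentiated and is made in facial mesenchyme, varied more among mutants than among controls, unlike the other 6 genes. It was at 36.7, 23.3 and 36.7 RPM in controls 1 to 3 and at 13.2, 21.9 and 40.5 RPM in mutants 1 to 3. Mutant 1 was the lowest of all libraries and mutant 3 the highest, a 3.07-fold range within 1 genotype. The means were 32.2 ± 7.76 and 25.2 ± 14.0 RPM, with a log2 change of -0.45 (SE 0.39, 95% interval -1.36 to 0.46, unadjusted p 0.283 by limma). Both litter 1 mutants were below both litter 1 controls (change -0.75), and the litter 2 mutant was above its control (0.14). Without mutant 1 the change was -0.08, and without mutant 3 it was -0.85 with an unadjusted p of 0.0272 and an adjusted p of 1.00 (limma, Benjamini-Hochberg). It was -0.66 without control 2 and -0.34 without control 1 or control 3, so the size of the Six2 change moved with several libraries.

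Six4, a factor of muscle and kidney formation, was at 7.41, 6.37 and 2.75 RPM in controls 1 to 3 and at 5.29, 5.52 and 4.53 RPM in mutants 1 to 3. Control 1 was the highest and control 3 the lowest, with all mutants between them. The means were 5.51 ± 2.44 and 5.11 ± 0.522 RPM, a log2 change of -0.01 (SE 0.32, 95% interval -0.76 to 0.73, unadjusted p 0.972 by limma). That value averages a change of -0.30 in litter 1 and one of 0.56 in litter 2. It was -0.37 without control 3 and 0.21 without control 1.

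Six5, which lies next to the kinase gene Dmpk at the myotonic dystrophy locus, was at 43.8, 41.7 and 34.5 RPM in controls 1 to 3 and at 33.7, 39.1 and 35.2 RPM in mutants 1 to 3. The groups overlapped, and the 6 values spanned only 1.30-fold. The means were 40.02 ± 4.86 and 35.99 ± 2.79 RPM, a log2 change of -0.14 (SE 0.14, 95% interval -0.48 to 0.19, unadjusted p 0.346 by limma). The enamel epithelium markers varied against Six5 over the 6 libraries (Pearson's r -0.92), and with their mean as a covariate the Six5 change was -0.07.

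**Figure D2:**
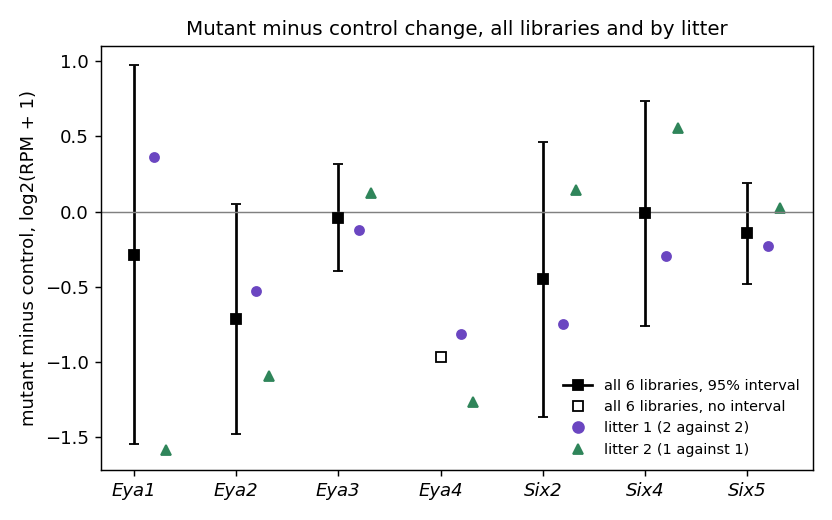
Mutant minus control change on the log2(RPM + 1) scale for each gene. Black squares are the fit over all 6 libraries with its 95% interval (Eya4, open, without one), purple circles the change within litter 1 and green triangles within litter 2. Eya2 and Eya4 lie below 0 in both litters, from -0.53 to -1.27, while Eya1 (higher in litter 1, lower in litter 2) and Six2, Six4, Eya3 and Six5 (the reverse) lie on opposite sides of 0, which for Eya3 and Six5 does not hold under median-of-ratios scaling.

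By litter, 6 of the 7 genes had both litter 1 mutants below both litter 1 controls, where 19.9% of all tested genes did; Eya1 was the exception. Since Eya4 was picked for being lower, the count without it is 5 of 6. Under median-of-ratios and under upper-quartile scaling Eya3 overlapped as well, which left 4 of 6, against 14.3% and 18.6% of all genes. Both arrangements together, lower in litter 1 without overlap and higher in litter 2, were found for 4 of the 7 and for 14.6% of all tested genes. In litter 2 the mutant was above its control for 4 of the 7, and for 67.9% of all tested genes. Under median-of-ratios scaling, 48.8% of all genes were, and Eya3 and Six5 no longer were. Eya4 and Eya2 were lower in both litters under each of the 3 scalings compared. For Eya4 the litter changes were -0.76 and -1.36 under median-of-ratios scaling, and for Eya2 they were -0.44 and -1.22.

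Levels were compared between genes per kilobase of annotated exon, since longer transcripts collect more reads. In controls Six2 stood at 15.2 ± 3.66 RPM per kb and Six5 at 13.3 ± 1.62 RPM per kb, a difference within their spread, with Six2 the higher in 3 of 6 libraries. Eya3 followed at 5.50 ± 0.815 and Eya2 at 3.35 ± 1.62 RPM per kb, and Eya3 was above Eya2 in 5 of 6 libraries, all but control 3. Six5 and Six2 were above Eya3, and Eya2 above Six4, in 6 of 6 libraries. Six4 (0.507 ± 0.225 RPM per kb), Eya1 (0.409 ± 0.378) and Eya4 (0.273 ± 0.0820) formed the low end and did not differ beyond their spread in controls. The mutant means were 11.9 ± 6.58 for Six2, 11.97 ± 0.928 for Six5, 5.31 ± 0.257 for Eya3, 1.81 ± 0.441 for Eya2, 0.471 ± 0.0481 for Six4, 0.272 ± 0.184 for Eya1 and 0.0852 ± 0.00634 RPM per kb for Eya4.

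The lowest of the 7 per kb was Eya4 in 3 of 3 mutants and in 0 of 3 controls, where it was Eya1 in 2 and Six4 in 1. The same counts were found with the length of the longest transcript in place of all exons. The choice of Eya4 favours this contrast between the genotypes. In control 2 Eya1 (0.273 RPM per kb of exon) and Eya4 (0.278) were nearly level. Of the summed per-kb level of the 4 Eya genes, Eya3 made up 59.1% ± 15.3 in controls and 71.1% ± 5.59 in mutants, and Eya2 34.1% ± 11.7 and 24.1% ± 5.35. The Eya4 share was 2.83% ± 0.566 in controls and 1.14% ± 0.137 in mutants, a difference that its choice implies. The most abundant Eya transcript of this tissue was thus Eya3 on average in both genotypes, and Eya4 was a minor one.

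**Figure D3:**
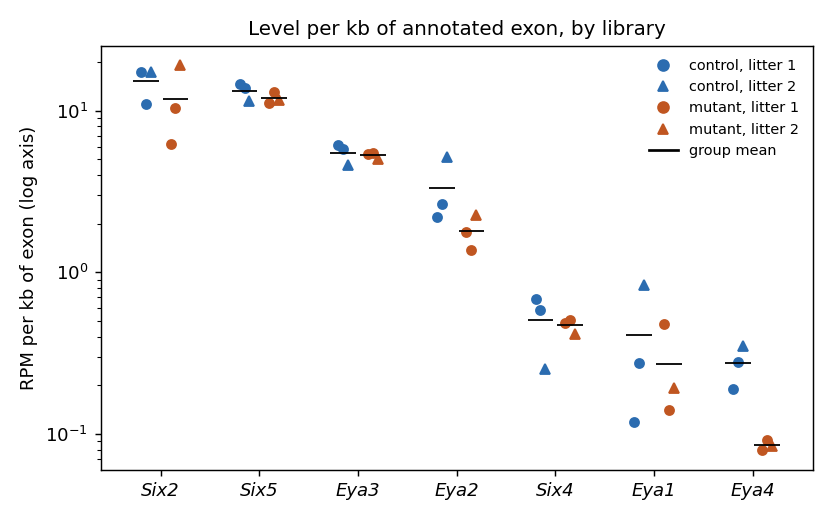
Level of each gene in RPM per kb of annotated exon on a log axis, with genes ordered by their control mean. Blue symbols are controls, orange mutants, circles litter 1, triangles litter 2 and black lines group means. Six2 and Six5 lead at 11.9 to 15.2 RPM per kb on average, and the Eya4 mutants sit at the bottom at 0.0852.

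Across the 6 libraries the 7 genes did not vary as one group. The closest pair was Eya3 and Six4 (Pearson's r 0.98, Spearman's rho 1.00), and both ran close to Six5 (r 0.81 and 0.76). Eya2 ran with Eya4 (r 0.84, rho 0.71) and with Eya1 (r 0.71, rho 0.54). Eya1 ran against Six4 (r -0.78) and Eya3 (r -0.72). These are descriptions over 6 libraries that share depth and tissue content, and 200 tested genes had an r of at least 0.95 with Six4, 176 with Eya3 and 8 with Eya4. Control 3 was lowest for Six4 and Eya3 and highest for Eya1, Eya2 and Eya4. The erythroid markers, highest in control 3 at 1417 RPM against 130.4 to 428 RPM elsewhere, ran against Six4 (r -0.96) and Eya3 (r -0.94), and their part in those values was not tested.

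**Figure D4:**
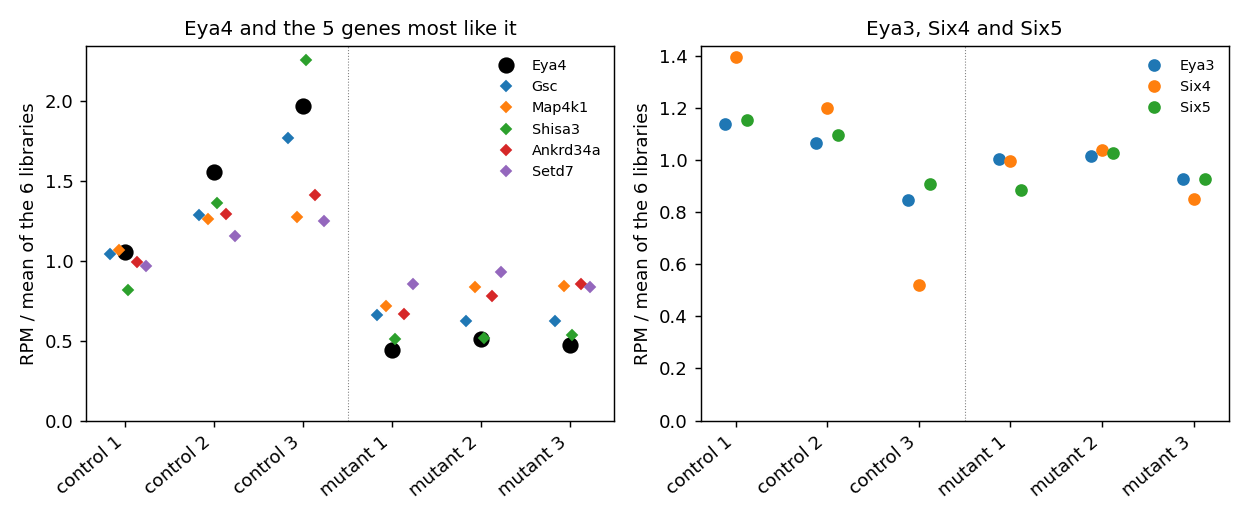
Level in each library divided by the gene's mean over the 6 libraries (y axis). The left panel shows Eya4 (black circles) with the 5 genes most like it, and the right panel Eya3, Six4 and Six5. On the left the 3 mutants lie below the 3 controls for the genes shown, and on the right control 3 is the lowest library for Eya3 and Six4.

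The genes most like Eya4 over the 6 libraries were Gsc (r 0.99, rho 0.83), Map4k1 (r 0.97), Shisa3 (r 0.97), Ankrd34a (r 0.97) and Setd7 (r 0.97). Gsc, the homeobox factor goosecoid of the jaw mesenchyme, was at 6.42, 7.90 and 10.9 RPM in controls 1 to 3 and at 4.05, 3.83 and 3.81 RPM in mutants 1 to 3. Its mutants were level and its controls spread upward to control 3, as for Eya4. Shisa3, which encodes a membrane protein that restrains Wnt and FGF receptors, was at 2.63, 4.37 and 7.24 RPM in controls 1 to 3 and at 1.63, 1.66 and 1.72 RPM in mutants 1 to 3. Setd7, a lysine methyltransferase, was far more abundant, at 83.1, 99.3 and 107 RPM in controls 1 to 3 and 73.1, 80.05 and 71.99 RPM in mutants 1 to 3. Since Eya4 was chosen for its genotype difference, genes like it differ by genotype by construction.

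Eya1 was most like Lmtk2, Slc26a1 and Cdh2 (r 0.98 each), the last being N-cadherin. Slc26a1, a sulfate transporter, reached 13.7 RPM in control 3 and 7.96 RPM in mutant 1 against 1.71 to 2.98 RPM in the other libraries. Eya2 was most like Dpep1, a dipeptidase (r 1.00), Stmn2, a microtubule regulator of neurons (r 0.98), and P4ha3, a collagen prolyl hydroxylase subunit (r 0.98). Dpep1 was at 9.97, 11.4 and 27.9 RPM in controls 1 to 3 and 7.92, 5.46 and 9.43 RPM in mutants 1 to 3, the same order of high and low libraries apart from 1 exchange of neighbours. Eya3 was most like Rhbdd3 (r 1.00), A930033H14Rik (r 1.00) and Ccdc9 (r 0.99), and Six4 was most like Mtcp1, Arl8a (both r 1.00) and Cpsf6 (r 0.99). Six2 was most like Afg3l2, a mitochondrial protease (r 1.00), Sf3a3, a splicing factor (r 1.00), and Gnb4 (r 0.99). Six5 was most like Stk40, Zc3h12b and the histone deacetylase gene Hdac7 (r 0.99 each).

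Protein partners of the Eya-Six pair were taken from a list of 19 genes, of which 14 reached a mean of 1 RPM and were tested. By the fitted change 9 were lower in mutants and 5 were higher, where 54.4% of all genes tested were lower. Their median change was -0.11 against -0.01 for all genes. None of the lower ones and 1 of the higher ones had an unadjusted p under 0.05, where 0.692% and 0.36% of all genes did. The one was Dach1, a corepressor that joins the Eya-Six complex. It was at 10.2, 7.20 and 4.70 RPM in controls 1 to 3 and at 10.3, 11.4 and 14.5 RPM in mutants 1 to 3. All mutants were above all controls, as for 0.976% of all genes tested, though mutant 1 and control 1 were nearly equal. The Dach1 log2 change was 0.68 (SE 0.28, unadjusted p 0.0415, adjusted p 1.00 by limma with Benjamini-Hochberg). Its paralogue Dach2, named after its values were seen, averaged 4.42 ± 2.31 RPM in controls against 2.43 ± 0.999 RPM in mutants (change -0.60, SE 0.38, unadjusted p 0.159 by limma).

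The most abundant listed partners showed smaller differences. Ski, a corepressor of SMAD proteins related to Dach1, averaged 300.01 ± 46.2 RPM in controls against 287 ± 37.0 RPM in mutants (change -0.06). Tle3, a Groucho corepressor, was at 119.99 ± 5.66 (control) and 108 ± 16.5 RPM (mutant) (change -0.16), and the acetyltransferase gene Ep300 at 63.1 ± 10.1 and 63.8 ± 9.77 RPM (change 0.02). Of the Pax genes, Pax6 and Pax9 reached the filter (changes -0.14 and -0.15), and Pax1 and Pax7 had 0 reads in all 6 libraries. Those 0 reads allow a level of up to 0.0987 to 0.126 RPM, by library.

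Of 14 genes known as targets of the Eya-Six pair, 10 were tested. By the fitted change 5 were lower, as were 54.4% of all genes tested, and 5 were higher. Their median change was 0.09 against -0.01 over all genes. At an unadjusted p under 0.05 (limma) the count was 0, where 1.05% of all genes passed. Igfbp5, a binding protein for insulin-like growth factors, averaged 2302 ± 279.6 RPM in controls against 2136 ± 227 RPM in mutants (change -0.11, SE 0.34). The cyclin gene Ccnd1 was at 146 ± 40.4 (control) and 122 ± 48.7 RPM (mutant) (change -0.31, SE 0.34). Slc12a2, which encodes a chloride cotransporter, was at 86.9 ± 34.5 (control) and 106 ± 43.9 RPM (mutant) (change 0.28, SE 0.37). None of these differences exceeded the spread between libraries. Myog and Wt1, regulators of muscle and kidney formation, had 0 reads.

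**Figure D5:**
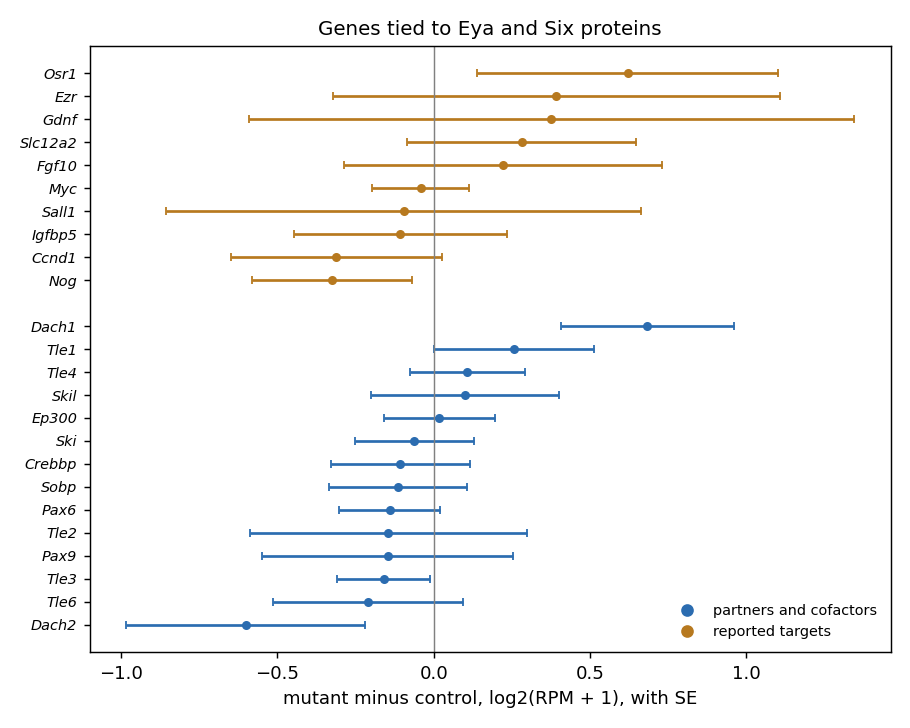
Mutant minus control change with its SE on the log2(RPM + 1) scale (x axis) for 14 tested partners (blue) and 10 tested targets (ochre). Dach1, at 0.68, and Dach2, at -0.60, are the partners farthest from 0.

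Beside these, the markers of the tissue and of its neighbours showed 0 genes with an adjusted p under 0.05 (limma, Benjamini-Hochberg). At an unadjusted p under 0.05, where 0.692% of all genes tested were lower, 2 of 10 mesenchyme genes were lower (Lhx8, -0.46, and Gli1, the gene whose activity drives CreER, -0.70), 2 of 7 osteoblast genes (Ibsp, -1.41, and Spp1, -3.05) and 1 of 5 glia and neuron genes (S100b, -0.54). No gene of the enamel, endothelial, macrophage or erythroid lists was. Gli1-CreER is named only for the mutants. An effect of the driver itself on Gli1 and one of its action on Bmpr1a cannot be told apart. By the fitted change 7 of 7 osteoblast genes (median -0.50) and 8 of 10 mesenchyme genes (median -0.23) were lower. Of the enamel genes 9 of 10 were higher (median 1.11). Over all genes tested 54.4% were lower and the median was -0.01. The groups overlapped in the summed level of each tissue list, and the part of the osteoblast and mesenchyme lists in the Eya-Six values was not tested. Over the 6 libraries the summed levels of the tissue lists ran with Eya4 at r between -0.20 for the enamel epithelium and 0.59 for glia and neurons, the latter 0.08 without Tubb3.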

How the data were processed

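Polyadenylated RNA was read on an Illumina NextSeq in 6 libraries, per the labels' protocols. TopHat2 and mm10 are named in the submitters' processing notes; the counting program and annotation are not given in the sources used here. The authors deposited their normalized read values on a log2 scale in 1 table titled normalized RPKM. As powers of 2, 99.92% to 99.97% of the values above each column's minimum were whole multiples of 1 step (within 0.02 of a step), shared by all genes, so length had not been divided out. Values were read as log2 of RPM, a denominator inferred from the step and not stated, and the column minimum (0.9 of a step) as 0 reads.

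Genes averaging 1 RPM or more (14444; all 7 members) were fitted on log2(RPM + 1) with limma 3.58.1 (lmFit, eBayes with trend, no covariate) in R 4.3.3, two-sided, with Benjamini-Hochberg adjustment over all of them, and the code was tested on simulated data. Members, lists and tests were chosen with earlier results of these data known. Named genes were all members, listed genes with an unadjusted p under 0.05, the 3 most abundant partners and targets, and the 5 genes (Eya4) or 3 genes (other members) with the highest Pearson's r over the 6 libraries. Some named genes fall outside this rule and were named after their values were seen. They were those with 0 reads, the tested Pax genes, Dach2, Tubb3, the enamel genes named beside Eya1, H2-Q2 and AC122464.1. Groups come from the genotype labels; nothing says that libraries within a litter came from separate animals, and p-values measure only the spread between libraries. Counting intervals (exact Poisson, 95%) cover counting error only, since reads carry no molecular identifiers. Exon lengths and coordinates are from GENCODE M21. Other genes of the 2 families are not analysed here, and 2 genes of the lists are not reported here and were left out of their lists' counts, medians and sums.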

Additional observations from a re-analysis of the deposited data

Results flagged for a closer look

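For 4 of the 7 genes every litter 1 mutant was lower than every litter 1 control, and in litter 2 the mutant was higher than the control; the same or the mirrored arrangement was found for 18.2% of all tested genes. The difference of the change between litters (litter 2 minus litter 1, limma interaction term with Benjamini-Hochberg adjustment; adjusted p 0.91 for each) was 0.25 for Eya3 (unadjusted p 0.383), 0.89 for Six2 (0.149), 0.85 for Six4 (0.0635) and 0.26 for Six5 (0.383). Under median-of-ratios scaling Six2 and Six4 kept the arrangement, with differences of 0.67 each (the litter 2 change of Six2 was then 0.0078), and Eya3 (0.026) and Six5 (0.035) did not. With 1 library of each genotype in litter 2, the effect of the litter and of a single library cannot be told apart.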

How the results depend on the processing

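The within-litter values under upper-quartile scaling were chosen after seeing the data; they gave the same directions as median-of-ratios scaling except for the litter 2 change of Eya3 (0.020). Eya2, Eya4, Six2 and Six5 stayed lower in mutants under each alternative that gave a value (18 each, and 17 for Eya4; Eya1 and Eya4 had no value with a filter at a mean of 5 RPM). The Eya4 change, -0.96, was -1.53 and -1.21 with pseudocounts of 0.1 and 0.5 RPM and -1.60 by limma voom, since a smaller pseudocount shrinks a low gene less; leaving out 1 library at a time gave -1.13 to -0.82. Six4 turned positive with a pseudocount of 0.1 (0.0062), median-of-ratios scaling (0.0067), voom (0.014) and the enamel covariate (0.17), Eya1 in litter 1 alone (0.37) and Eya3 with the enamel covariate (0.021); the cause was not tested. Leaving out 1 library gave -0.37 to 0.21 for Six4, -0.73 to 0.25 for Eya1, -0.16 to 0.045 for Eya3, -0.94 to -0.38 for Eya2, -0.85 to -0.08 for Six2 and -0.24 to -0.08 for Six5.

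The 152 genes at an unadjusted p under 0.05 became 347 with no filter, 403 with the enamel covariate, 292 in the litter-blocked fit, 316 for litter 1 only and 68 to 319 with 1 library left out. With the replicate number of the column names as a block the count was 524 and the unadjusted p of Eya2 was 0.0144 (limma; adjusted p 0.931). Deviations of same-numbered libraries correlated at -0.03, 0.75 and 0.50 across genes, and those of differently numbered ones at -0.67 to 0.09. Numbers 2 and 3 thus stood out and number 1 did not, so the numbers were not taken to pair the libraries. Genes at an adjusted p under 0.05 (limma, Benjamini-Hochberg), 0 in the reported fit and by voom (148 unadjusted), numbered 2 with no filter (H2-Q2 and AC122464.1, named after their values were seen) and 0 to 1 with 1 library left out (Spp1 without control 1). None of the 6 tested Eya-Six genes passed adjustment under any alternative. Depth limits Eya4 most, with 19 reads in mutant 3.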
